A study of Mus musculus with 4 samples.

Results

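The nuclear genes for oxidative phosphorylation were followed in foregut endoderm and in the neighbouring mesoderm and ectoderm of the mouse embryo. Members were the genes whose single symbol in the array annotation starts with Nduf, Sdha, Sdhb, Sdhc, Sdhd, Uqcr, Cox4i, Cox5, Cox6, Cox7, Cox8 or Atp5. The prefixes gave 94 genes of 18193 on the array, from 185 of its probe sets, and each gene was read from its brightest probe set. Complex I had 36 members, complex II had 4, complex III had 8, complex IV had 17 and complex V had 17. The other 12 members were assembly factors that share the prefixes, the Ndufaf and Sdhaf genes. The rule used the symbols alone, and brightness only to pick a probe set within a gene.

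All 4 samples came from ARC/s mouse embryos of embryonic day 8.5 with 4 to 5 somites, although the source label starts its range at 3, and each sample was a pool of 15 to 20 tissue pieces. There were 2 samples of foregut endoderm and 2 of combined tissue, made of heart mesoderm with head mesoderm and ectoderm, here called mesoderm and ectoderm. Both samples numbered 1 were separated by mechanical dissection alone, and both samples numbered 2 by digestion with trypsin and pancreatin followed by mechanical dissection. The numbers are called the first and the second experiment, and experiment and dissection cannot be told apart. A description field calls the second endoderm sample ectoderm, while its title, tissue and source labels say foregut endoderm. The RNA went through a double round of linear amplification before hybridisation to Affymetrix MOE430 arrays. The labels do not say whether samples of a tissue shared litters, so the p-values measure only the spread between these 4 pools. Each experiment had 1 sample per tissue. The SE and p-value of a difference between experiments therefore rest on how far the 2 tissues disagreed in it, not on replicate pools of an experiment.

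Oxidative phosphorylation passes electrons from NADH and succinate along complexes I to IV of the inner mitochondrial membrane to oxygen, and complex V uses the resulting proton gradient to make ATP. Most subunits are encoded in the nucleus, translated on cytosolic ribosomes and imported, while the mitochondrial genome encodes a small set of core subunits. Early embryos rely heavily on glycolysis, and the developing heart is known for an early gain of mitochondria, with some complex IV subunits replaced by muscle isoforms. Promoters of these nuclear genes are known for binding sites of NRF1, of the ETS factor GABP and of YY1.

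Promoters of 3 members are shown because 2 of these members differed most between the experiments in their complexes, 1 differed by 0.17 on its brightest probe set, and letters of these factors occur in all 3. A RefSeq promoter on GRCm38.p6, of 250 bases before and 50 after the outermost start, was matched by gene ID for 78 of the 94 members, beside 27025 genes in the table. On either strand, the NRF1 motif, the palindrome in capitals in the Atp5g2 sequence, was found in 6 of 78 members, 7.69% against 0.981% of all promoters. CCGGAAG (ETS) was found in 21, 26.9% against 9.14%, and AAGATGG (YY1) in 10, 12.8% against 6.46%. CCAAT was found in 33, 42.3% against 38.0%, and TATAAA in 9, 11.5% against 14.2%. No searched motif contains another, and a match is only a match of letters. Of the 250 bases before the start, given 5′ to 3′ on the gene's strand with these letters or their reverse complement in capitals, Uqcrh (chr4:116075071-116075320, minus strand) holds CCAAT 52 bases and the ETS letters 10 bases before the start. Atp5g2 (chr15:102671048-102671297, minus strand) holds the NRF1 letters 42 bases before it. Cox6a1 (chr5:115348959-115349208, minus strand) holds NRF1 letters at 162, CCAAT at 74 and ETS letters at 16 bases.
Uqcrh: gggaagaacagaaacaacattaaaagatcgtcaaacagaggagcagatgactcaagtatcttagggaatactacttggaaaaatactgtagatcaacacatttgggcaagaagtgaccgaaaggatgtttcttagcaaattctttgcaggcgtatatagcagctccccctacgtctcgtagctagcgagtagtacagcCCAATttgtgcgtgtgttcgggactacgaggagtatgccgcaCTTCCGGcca
Atp5g2: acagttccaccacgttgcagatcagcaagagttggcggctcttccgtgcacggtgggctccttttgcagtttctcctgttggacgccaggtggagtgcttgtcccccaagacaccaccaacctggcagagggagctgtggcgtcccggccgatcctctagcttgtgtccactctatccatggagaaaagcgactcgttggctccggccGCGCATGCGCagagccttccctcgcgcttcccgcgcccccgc
Cox6a1: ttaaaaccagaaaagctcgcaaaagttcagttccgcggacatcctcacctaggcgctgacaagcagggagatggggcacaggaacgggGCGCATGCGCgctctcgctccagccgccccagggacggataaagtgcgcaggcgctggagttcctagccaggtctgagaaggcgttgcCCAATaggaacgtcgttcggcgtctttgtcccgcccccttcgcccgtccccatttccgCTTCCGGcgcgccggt
Uqcrh and Atp5g2 had the largest differences between the experiments of complexes III and V, and Cox6a1 had one of 0.17 on the log2 scale, or 2.28 on its second probe set. The median difference over the 6 members with the NRF1 letters was 1.34, against 1.05 over the 72 with a promoter and without them. The 6 ran from -0.12 for Ndufaf4 to 4.35 for Atp5g2. A link between the letters and the difference was not tested, and the other letters were not split this way.

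Values below are log2 of the deposited normalised intensities, and a difference of 1 on this scale is 2-fold. A probe set passed the filter when it lay above 5 on at least 2 of the 4 arrays, which 13288 probe sets and 7797 genes did. Of the members, 80 passed and 14 did not. Among those that passed, 77 lay above 5 on all 4 arrays, and Ndufaf5 and Sdhaf1 passed only through the second experiment. Ndufb4, Cox4i2, Cox7b2 and Cox8c lay at the lowest value of the array, within 0.1, in all 4 samples. Whether probe sets at the lowest value report their transcripts was not tested. The plot of member levels shows all 94 on each array.

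**Figure D1:**
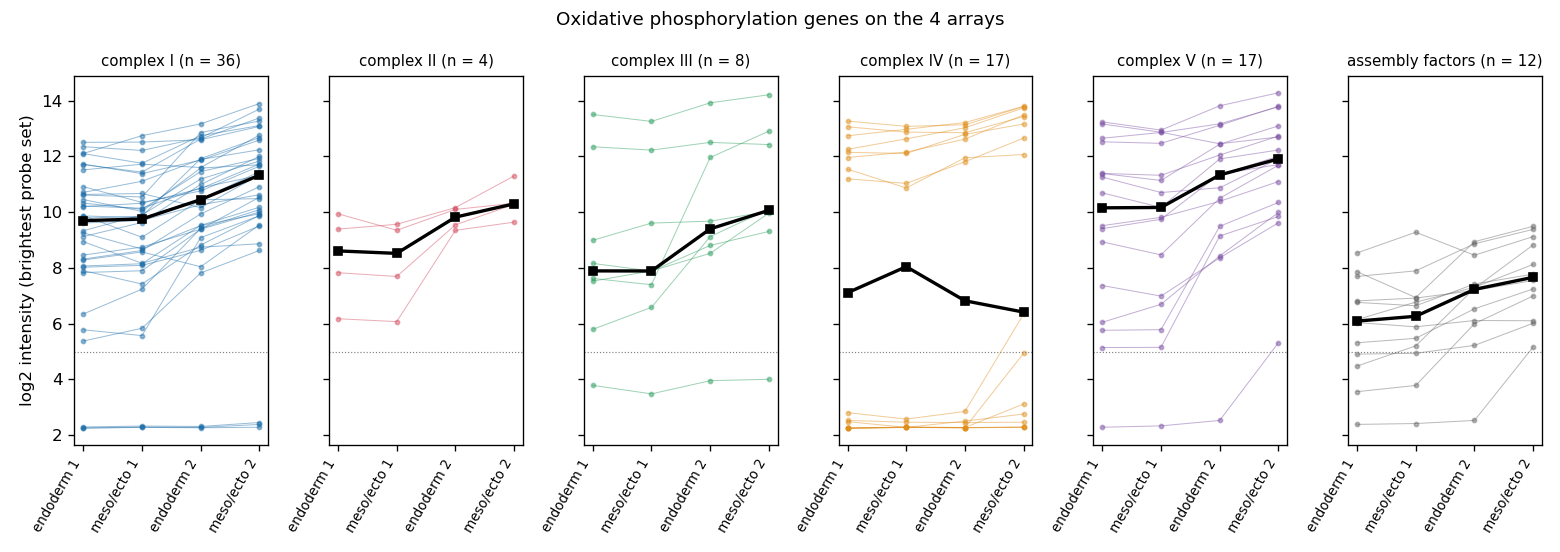
Log2 intensity (vertical axis) of each of the 94 members on the 4 arrays, grouped by complex, with black squares at the class medians over all members and a dotted line at the filter of 5. In complexes I, II, III and V and in the assembly factors the second experiment lies higher, and complex IV splits into 9 members past the filter and 8 mostly near the lowest value, so that its median is the value of Cox7c.

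Marker lists were read on each sample. They were chosen with earlier results of these data known, so they are not an independent check of the labels. Each of 14 foregut endoderm markers exceeded its level in mesoderm and ectoderm at least 2-fold in both experiments. The summed intensity of 24 heart muscle markers was 18071 in endoderm 1, 414 in mesoderm and ectoderm 1, 2326 in endoderm 2 and 123169 in mesoderm and ectoderm 2, with 2, 2, 3 and 0 of the 24 at the lowest value of the array. The first mesoderm and ectoderm sample thus had the lowest heart muscle signal of the 4, although its label includes heart mesoderm. The sums for 12 endothelial markers, in the same order of samples, were 914, 265, 206 and 644. For 9 markers of primitive red blood cells they were 2447, 497, 230 and 2465, with 4, 5, 5 and 5 at the lowest value. For 15 neural plate markers they were 2094, 7343, 4706 and 6199, and for 14 markers of head mesenchyme and crest 3212, 2622, 641 and 2137. The part of these cell types in the member differences was not tested, and in bulk tissue fewer cells of a type and less RNA per cell cannot be told apart.

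Most members of complexes I, II, III and V and most assembly factors were higher in the second experiment in both tissues, as were 6 of the 9 complex IV members past the filter. The median difference between the second and first experiments over the 94 members was 0.65 in endoderm and 1.37 in mesoderm and ectoderm, against 0.02 and 0.00 over all genes and -0.01 and 0.04 over genes past the filter. Of the 94, 83 were higher in the second experiment in both tissues, where 53.9% of all genes and 39.3% of genes past the filter were. At least 2-fold higher in both tissues were 32 of 94, or 34.0%, beside 5.12% of all genes and 11.2% of genes past the filter. None was at least 2-fold lower in both, beside 2.26% of all genes and 4.85% of genes past the filter. Atp5a1, Cox7c, Ndufaf4 and Cox8b were lower in both, beside 22.1% and 36.1%. The lower sample of the second experiment lay above the higher one of the first in 69 of the 80 members past the filter, beside 30.6% of genes past it, and the reverse held for 2, beside 27.9%. Among all genes, 4970 lay at the lowest value of all 4 arrays, where a difference is that of the arrays' lowest values.

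None of these differences passed the test. In limma's fit of experiment with tissue as a term, 0% of the 13288 probe sets had a Benjamini-Hochberg adjusted p under 0.05, and the lowest adjusted p, shared by members, was 0.0966. An unadjusted p under 0.05 with a higher value was found for 49 of the 80 members past the filter, which is 61.3% beside 16.5% of genes past the filter, and with a lower value for 0, beside 11.5%. With quantile normalisation 17 of the 80 members past the filter had a limma adjusted p under 0.05. Centring each array on its median gave 12, and a filter of 7 in place of 5 gave 15. All of these members were higher in the second experiment. Other probe sets were also called in these fits, and the last section gives the counts over all probe sets.

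**Figure D2:**
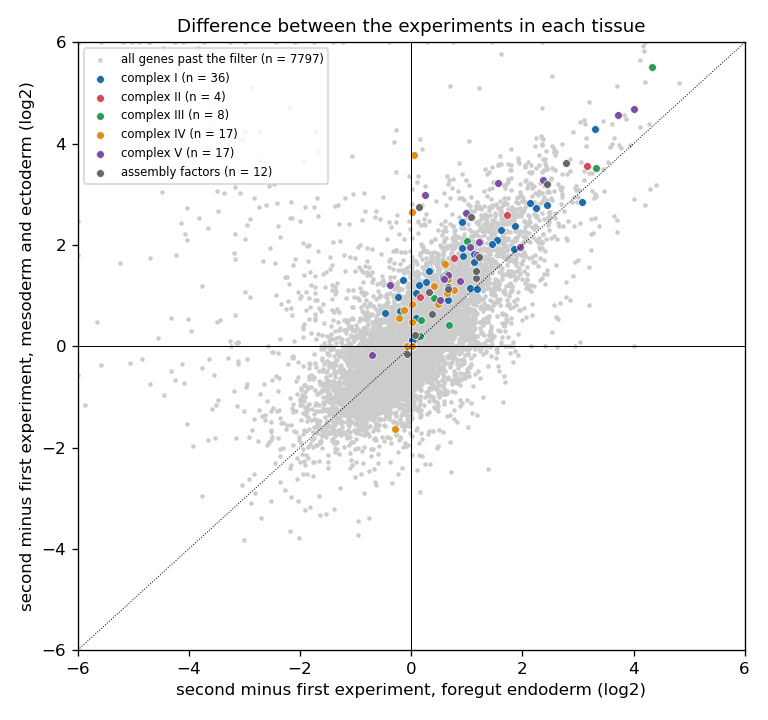
Difference between the second and first experiments in log2 units, in endoderm (horizontal axis) and in mesoderm and ectoderm (vertical axis). Members are coloured by complex, over all genes past the filter in grey. Values beyond the axes are drawn at the edge. Of the 94 members, 83 lie above 0 on both axes and 85 lie above the diagonal.

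Complex I takes electrons from NADH. Of its 36 members 32 were higher in the second experiment in both tissues, 14 of them at least 2-fold, with median differences of 0.66 in endoderm and 1.41 in mesoderm and ectoderm. Among these 32, Ndufb4, Ndufb1 and Ndufa4l2 lay near the lowest value and differed by 0.02 in endoderm. Past the filter 29 of 33 were higher in both tissues. The differences ran from -0.47 to 3.31 in endoderm and from 0.00 to 4.29 in mesoderm and ectoderm.
Ndufa6, an accessory subunit, read 5.78 in endoderm 1, 5.57 in mesoderm and ectoderm 1, 9.08 in endoderm 2 and 9.86 in mesoderm and ectoderm 2. Both samples of the second experiment lay above both of the first, with a difference of 3.80 ± 0.36 (SE, n = 4 arrays; limma adjusted p = 0.0966). Ndufa7, another accessory subunit, read 6.34, 7.24, 9.41 and 10.09 in the same order, a difference of 2.96 ± 0.23 with the same adjusted p. Ndufs5, an accessory subunit of the intermembrane space, read 5.38, 5.83, 7.82 and 8.62. Its experiments did not overlap either, and differed by 2.61 ± 0.25.
Ndufa1, Ndufb6 and Ndufc2 were named by their mean level. Ndufa1, a small subunit of the membrane arm, read 12.10, 12.74, 13.16 and 13.89, and its experiments did not overlap. Ndufb6, a membrane arm subunit, read 12.34, 12.21, 12.66 and 13.69. Ndufc2 read 12.50, 12.51, 12.59 and 13.07, so that its lower 3 samples lay within 0.1, and its second probe set differed between the experiments by 0.94 beside 0.33. For Ndufb6 the second probe set differed by 1.79 beside 0.90. Over the 6 core subunits the median difference of both tissues together was 0.97. Over the other 30 members with the complex I prefix, Ndufa4 and Ndufa4l2 included, it was 1.07. The core subunit Ndufs8, a carrier of iron-sulphur clusters, read 8.28, 8.57, 8.04 and 9.54, and its experiments overlapped. On its second probe set it read 7.57, 7.61, 8.39 and 9.85, without overlap and with a difference of 1.53 beside 0.36. Ndufa4, which carries the complex I prefix but is now placed in complex IV, read 9.12, 9.63, 10.99 and 12.00, a difference of 2.12 ± 0.27 (limma adjusted p = 0.0966).

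Complex II, succinate dehydrogenase, is also an enzyme of the citric acid cycle. All 4 members were higher in the second experiment in both tissues, and Sdhc and Sdhd were at least 2-fold higher in both. The membrane anchor Sdhc read 6.18 in endoderm 1, 6.07 in mesoderm and ectoderm 1, 9.34 in endoderm 2 and 9.64 in mesoderm and ectoderm 2, a difference of 3.37 ± 0.25 (limma adjusted p = 0.0966). The other anchor, Sdhd, read 7.83, 7.69, 9.54 and 10.28. Both anchors separated the experiments without overlap on these probe sets, and their second probe sets differed by 0.41 for Sdhc and 0.91 for Sdhd. The iron-sulphur subunit Sdhb read 9.39, 9.56, 10.16 and 11.30, a difference of 1.25 ± 0.36 (limma adjusted p = 0.155). The flavoprotein Sdha, which oxidises succinate, read 9.94, 9.35, 10.10 and 10.32, and differed by 0.56 ± 0.33 (limma adjusted p = 0.339).

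Complex III passes electrons from ubiquinol to cytochrome c. All 8 members were higher in the second experiment in both tissues, with medians of 0.66 and 1.19. The hinge subunit Uqcrh read 7.62, 7.39, 11.96 and 12.90, a difference of 4.92 ± 0.41 (limma adjusted p = 0.0966), the largest of all 94 members. The small subunit Uqcr11 read 5.79, 6.58, 9.12 and 10.10, a difference of 3.42 ± 0.23. The small subunit Uqcrq read 7.52, 7.89, 8.52 and 9.96. In each of these the lower sample of the second experiment lay above the higher one of the first.
The core protein Uqcrc2 read 12.34, 12.22, 12.50 and 12.42, a difference of 0.18 ± 0.22 that was -0.093 with quantile normalisation. The Rieske iron-sulphur protein Uqcrfs1 read 8.99, 9.60, 9.67 and 10.02. Uqcrb, a small subunit near the ubiquinone site, read 13.50, 13.25, 13.92 and 14.21. Over the 3 core and Rieske members the median difference was 0.55, and over the 5 small subunits 1.53.

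Complex IV, cytochrome c oxidase, reduces oxygen. Of its 9 members past the filter 6 were higher in the second experiment in both tissues, none of them at least 2-fold in both. Of the 8 that did not pass, 7 were also higher in both, but by at most 0.042 in endoderm, close to the 0.02 by which the arrays' lowest values differed. Its medians were 0.02 and 0.83 over all 17 and 0.48 and 1.06 over the 9 past the filter. Cox5a, a matrix-side subunit, read 13.26, 13.07, 13.13 and 13.78, and the experiments overlapped. Cox5b, another matrix-side subunit, read 12.25, 12.62, 13.02 and 13.74. Cox6c, a membrane-spanning subunit, read 12.14, 12.10, 12.79 and 13.16, without overlap between the experiments in either of the last 2. Cox7c, a small subunit named after its values were seen, read 7.11, 8.04, 6.82 and 6.41, lower in the second experiment by 0.29 and 1.63.

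Several complex IV subunits exist as a widespread form and a tissue form, and the plot of paralogs gives each. Cox4i1, the widespread form, read 11.19, 11.03, 11.80 and 12.65, and Cox4i2, known from lung, read 2.25, 2.28, 2.27 and 2.29. Cox6a1 read 13.06, 12.87, 12.84 and 13.43, and the heart and skeletal muscle form Cox6a2 read 2.26, 2.29, 2.27 and 3.12. Cox7a2 read 11.96, 12.15, 12.62 and 13.49. The muscle form Cox7a1 read 2.81, 2.58, 2.85 and 6.35, so that it lay above 5 in mesoderm and ectoderm 2 alone. That sample also had the highest summed intensity of heart muscle markers, and the part of muscle cells in this value was not tested.
Cox6b1 read 12.73, 12.97, 13.21 and 13.79, and the testis form Cox6b2 read 2.49, 2.28, 2.51 and 2.76. Cox7b2 and Cox8c lay at the lowest value on all arrays, and the muscle form Cox8b read between 2.45 and 2.53. Cox8a, the widespread form, read 2.25, 2.28, 2.27 and 4.94 on the brightest of its 3 probe sets. That probe set therefore lay below the filter on all 4 arrays, and whether it reports the transcript was not tested. Ndufa4l2, the relative of Ndufa4 known from hypoxia, read between 2.26 and 2.38.
Cox7a1 and Cox8a were not alone. Atp5l, a membrane subunit of complex V, read 2.29, 2.33, 2.53 and 5.32, and the assembly factor Ndufaf3 read 2.39, 2.42, 2.53 and 5.16. Both were named after their values were seen, and with Cox7a1 they are the 3 members above 5 in mesoderm and ectoderm 2 alone.

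**Figure D3:**
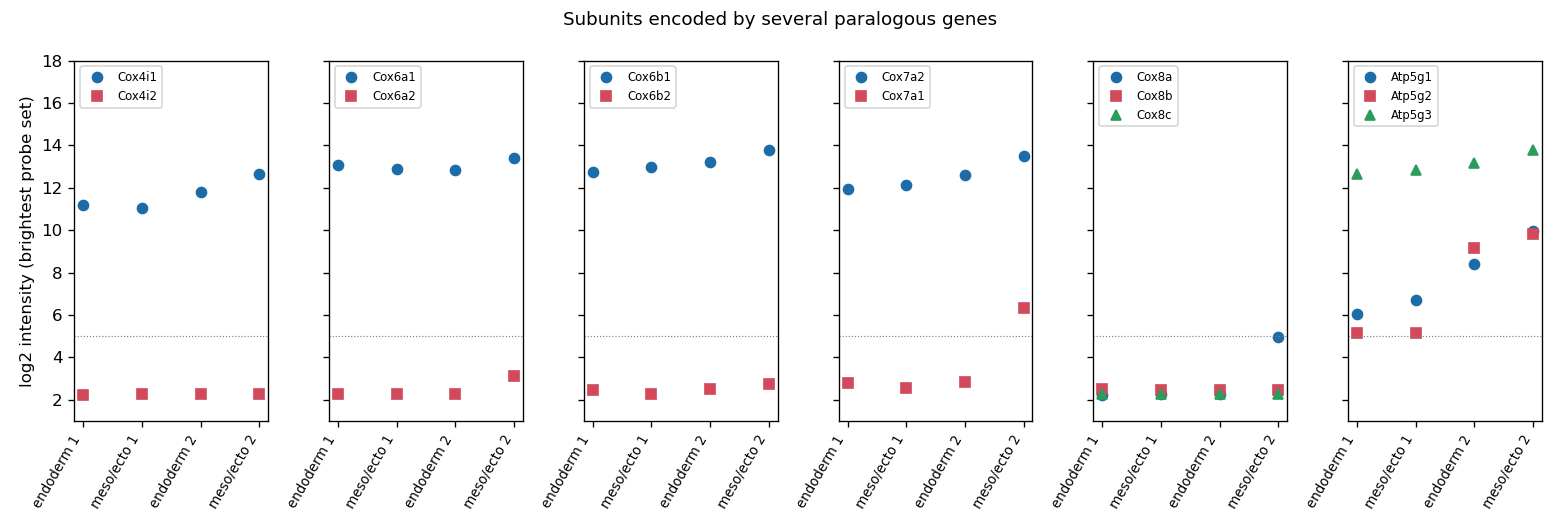
Log2 intensity (vertical axis) of widespread and tissue-restricted paralogs, and of the 3 Atp5g genes, on the 4 arrays, with a dotted line at the filter of 5. The muscle form Cox7a1 reaches 6.35 in mesoderm and ectoderm 2 and at most 2.85 elsewhere, and Cox8a stays below the line on all arrays.

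Complex V, the ATP synthase, had 15 of 17 members higher in the second experiment in both tissues, 8 of them at least 2-fold, with medians of 0.99 and 1.96. The 3 genes for ring subunit c, which encode the same mature protein with different import peptides, differed between the experiments by unequal amounts. Atp5g2 read 5.14 in endoderm 1, 5.15 in mesoderm and ectoderm 1, 9.14 in endoderm 2 and 9.84 in mesoderm and ectoderm 2, a difference of 4.35 ± 0.30. Atp5g1 read 6.05, 6.69, 8.43 and 9.99, a difference of 2.84 ± 0.35 (limma adjusted p = 0.0966 for both genes). Atp5g3 read 12.65, 12.85, 13.16 and 13.77, and differed by 0.72 ± 0.25 (limma adjusted p = 0.192). None of the 3 overlapped between the experiments on its brightest probe set. Atp5g3 had the highest mean level of the 3 and the smallest difference, and the part of signal level in these amounts was not tested.
In the F1 head, which makes ATP, the median difference over 5 subunits was 1.03. The central stalk subunit epsilon, Atp5e, read 5.76, 5.78, 9.49 and 10.34, a difference of 4.14 ± 0.33 (limma adjusted p = 0.0966). Atp5d, the delta subunit beside it, read 9.51, 9.81, 10.38 and 11.09. In the catalytic hexamer, whose genes were named after their values were seen, Atp5a1 read 13.16, 12.86, 12.45 and 12.69, and Atp5b read 11.26, 10.70, 10.87 and 11.91. Atp5a1 was lower in the second experiment in both tissues on this probe set. On its second it read 10.15, 8.86, 10.47 and 11.24, higher in both, so the direction depended on the probe set. Atp5b overlapped.
The peripheral stalk subunits Atp5pb and Atp5h read 12.52, 12.46, 13.11 and 13.79, and 13.23, 12.94, 13.81 and 14.28. The median difference over the 4 stalk members was 1.22, and over the 5 accessory members of the membrane part 1.64. Among the latter Atp5md, a small membrane subunit, read 9.41, 9.74, 11.36 and 11.70, the same difference of 1.96 in either tissue (SE 0.22; limma adjusted p = 0.0966).

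The 12 assembly factors, proteins that help build complexes I and II without staying in them, had median differences of 0.87 and 1.42, and 6 were at least 2-fold higher in both tissues. Values of these genes were looked at before they were named. Ndufaf6 read 4.48, 5.20, 7.27 and 8.82, and Ndufaf5 read 3.56, 3.78, 6.0 and 6.99, so that both were near or below the filter in the first experiment. Ndufaf4 read 8.53, 9.28, 8.45 and 9.12, lower in the second experiment by 0.08 and 0.16. Ndufaf7 read 6.04, 5.89, 6.11 and 6.10.

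The difference between experiments was larger in mesoderm and ectoderm than in endoderm in 85 of 94 members, beside 39.2% of all genes and 57.9% of genes past the filter.

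Members with several probe sets gave different sizes, and for 3 genes different directions, for the same gene. Of 53 members with more than 1 probe set, 41 had at least 2 past the filter. The next brightest gave the larger difference between experiments in 25 of 41, or 61.0%, beside 55.1% of the 2720 genes with such pairs, with medians of 0.98 for the brightest and 1.43 for the next. In 13 of the 41 it was at least 2-fold larger and in 5 at least 2-fold smaller, beside 450 and 378 of the 2720 genes. Where the brightest was of a type shared by transcripts or gene families and the next was unique to a gene, the next gave the larger value in 17 of 20, with medians of 1.00 and 2.27. Pairs of these types were not counted over all genes, and the reason for these gaps was not tested.
For Uqcrb the second probe set read 10.26, 9.93, 12.97 and 13.30, a difference of 3.04 beside 0.69. For Atp5pb it read 6.95, 7.45, 10.48 and 11.46, a difference of 3.77 beside 0.96. For Cox6a1 it read 6.60, 6.46, 8.31 and 9.30, a difference of 2.28 beside 0.17. Sdhc went the other way, since its second probe set read 6.26, 5.89, 6.67 and 6.29, a difference of 0.41 beside 3.37. For Uqcrh the second gave 3.14 beside 4.92. The direction differed for Atp5a1, with 1.35 on the second probe set beside -0.44, for Atp5c1, with -1.68 beside 1.03, and for Ndufab1, with -0.88 beside 1.12. These examples were chosen after their values were seen, and size and in places direction for a single member depend on the probe set.

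**Figure D4:**
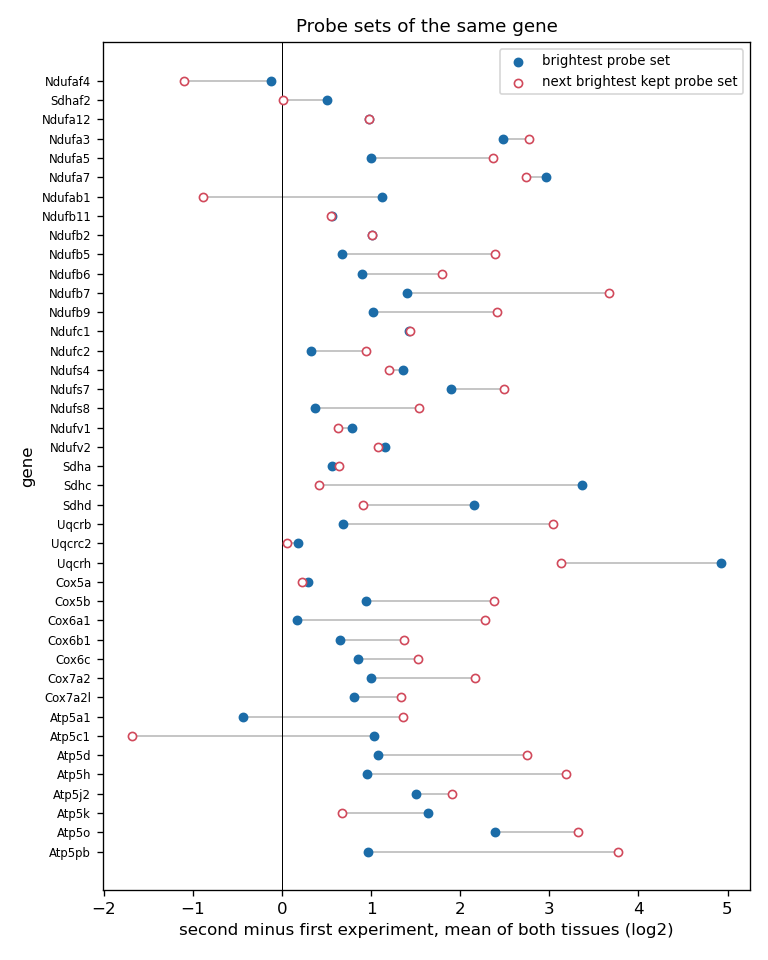
Difference between the second and first experiments in log2 units, as the mean of both tissues (horizontal axis), for 41 members (vertical axis). Filled dots give the brightest and open dots the next brightest probe set past the filter, joined by a line for each gene. The next brightest is larger in 25 of the 41 members.

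Between the tissues the members differed little in the first experiment and were lower in endoderm in the second. The median difference of endoderm minus mesoderm and ectoderm over the 94 members was -0.03 and then -0.67, against 0.15 and 0.01 over genes past the filter. In the first experiment 43 members were higher in endoderm and 51 lower, beside 60.3% of all genes and 37.9% of genes past the filter lower. The differences ran from -0.93 to 0.93, none at least 2-fold. That split moved with the scaling, to 32 higher and 61 lower with quantile normalisation and to 22 and 72 with median centring, and the median over genes past the filter moved from 0.15 to -0.03 and -0.09.
In the second experiment 91 of 94 were lower in endoderm, beside 67.2% of all genes and 49.4% of genes past the filter, 88 with quantile normalisation and 93 with median centring. At least 2-fold lower there were 18 of 94 members, beside 868 of 18193 genes. Past the filter they were 14 of 80 members, beside 577 of 7797 genes. Only Uqcrc2, Cox7c and Ndufaf7 were higher. Lower in both experiments were 50 members, or 53.2%, beside 49.0% of all genes and 24.3% of genes past the filter, while 41 were higher in the first and lower in the second, beside 18.2% and 25.1%. Higher in both were Uqcrc2 and Ndufaf7, beside 21.5% and 37.0%.

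No member passed the test of tissue. In limma's fit of the 4 arrays 0% of the 13288 probe sets had an adjusted p under 0.05, the lowest adjusted p was 0.724, and every member past the filter had 1.00. An unadjusted p under 0.05 was found for 0 members either way, beside 3.24% of genes past the filter called higher and 0.962% called lower. With the experiment as a replicate block there were still 0 members with an adjusted p under 0.05, the lowest being 0.499, beside 0% of all probe sets. At an unadjusted p under 0.05 in that fit 3 members were lower, namely Ndufa7, Uqcr11 and Ndufaf6, which is 3.75% beside 3.03% of genes past the filter, and 0 were higher, beside 7.39%. The median tissue difference was -0.34. Leaving out the first mesoderm and ectoderm sample gave -1.09 and leaving out the second gave 0.37, but both values set unequal numbers of arrays from the experiments against each other and so contain part of the difference between experiments. Within the pairs the medians were the -0.03 and -0.67 above. Heart muscle markers were highest in mesoderm and ectoderm 2, and their part in the tissue difference was not tested.

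**Figure D5:**
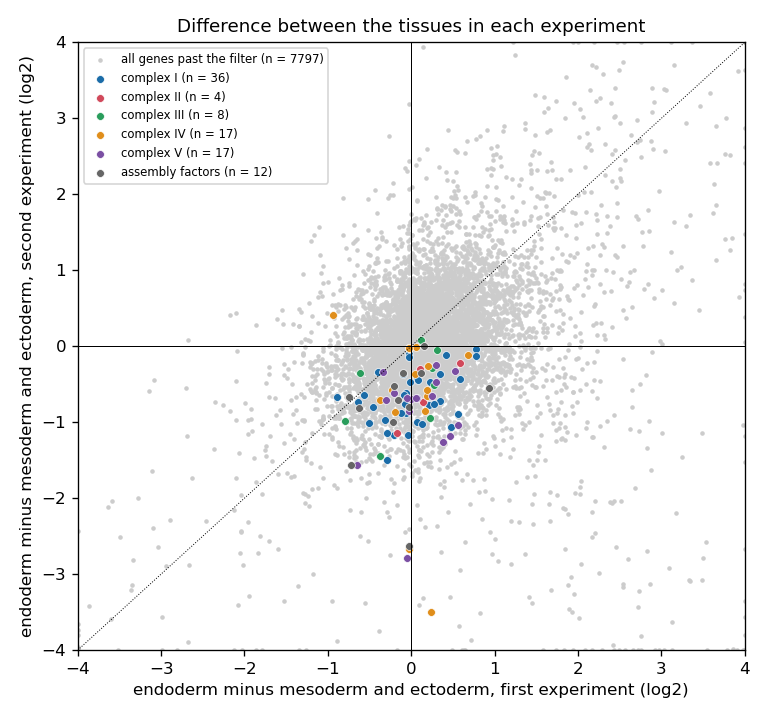
Endoderm minus mesoderm and ectoderm in log2 units, in the first (horizontal axis) and second (vertical axis) experiment. Members are coloured by complex, over all genes past the filter in grey. Values beyond the axes are drawn at the edge. On the first axis 43 members lie above 0 and 51 below, and 91 of 94 lie below 0 on the second.

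By class, the medians of the tissue difference in the first experiment were -0.03 for complex I, 0.12 for complex II, 0.17 for complex III, -0.03 for complex IV, 0.06 for complex V and -0.13 for the assembly factors. In the second they were -0.70, -0.51, -0.43, -0.58, -0.68 and -0.69. All 36 members of complex I, all 4 of complex II and all 17 of complex V were lower in endoderm 2 than in mesoderm and ectoderm 2. Some of these lay near the lowest value. Past the filter the same held for all 33 of complex I, all 4 of complex II and all 16 of complex V.
Among complex I members with the smallest tissue p, Ndufs8 was lower in endoderm in both experiments, by 0.29 and 1.50, a mean of -0.90 ± 0.48. Ndufb11, a membrane arm subunit, read 11.51 and 11.60 in the endoderm samples against 11.72 and 12.76. Ndufb8, another, read 10.63 and 10.16 against 10.67 and 11.33, a mean of -0.60 ± 0.43, and neither gene's tissues overlapped. Past the filter 4 members had tissues without overlap with endoderm lower, or 5.00%, beside 9.7% of genes, and 0 with endoderm higher, beside 18.2%. In the other complexes Uqcrq had -0.91 ± 0.90 and Cox7a2 -0.53 ± 0.62. Atp5g1 had -1.10 ± 1.52 and its tissues overlapped. Each SE is from limma on 4 arrays, and each of these adjusted p-values was 1.00. That fit has no replicate block, so these SEs contain the difference between experiments. With the block the SEs were 0.42 for Ndufs8, 0.40 for Ndufb8, 0.38 for Uqcrq, 0.30 for Cox7a2 and 0.35 for Atp5g1.

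Lists of neighbouring genes were described in the same fits, and 0 genes of any list had an adjusted p under 0.05 from limma. The counts below at an unadjusted limma p under 0.05 stand beside 16.5% higher and 11.5% lower in the second experiment among genes past the filter. Of 31 measured assembly factors outside the prefixes, the medians between experiments were 0.44 in endoderm and 0.73 in mesoderm and ectoderm, and an unadjusted p under 0.05 was found for 11 higher and 2 lower of 25 past the filter. Uqcc2, for complex III, read 6.69, 7.06, 9.55 and 10.52, and Pet100, for complex IV, read 3.05, 4.35, 7.45 and 7.54, so that it passed the filter only through the second experiment. Of 22 electron carrier and nucleotide exchange genes the medians were 0.15 and 0.37, with 4 of 20 higher and 0 lower. Coq7, of ubiquinone synthesis, read 7.23, 6.73, 9.94 and 10.72, and Atpif1, the inhibitor of the ATP synthase, read 11.22, 11.13, 13.25 and 13.41.
Of 17 genes of the citric acid cycle the medians were 0.05 and 0.52, with 3 of 16 higher and 1 lower. Idh2, a mitochondrial isocitrate dehydrogenase, read 6.56, 4.93, 8.81 and 9.05. Suclg2, a subunit of succinyl-CoA ligase, was lower in the second experiment by 0.82 ± 0.22. Of 20 regulators of mitochondrial biogenesis the medians were -0.06 and 0.00, with 0 of 14 higher and 2 lower. Gabpa, the DNA-binding subunit of GABP, read 10.24, 10.29, 8.79 and 9.07, and Tfb2m, a factor for mitochondrial transcription, read 8.40, 8.64, 7.62 and 7.29. Polg, the mitochondrial DNA polymerase, was the only gene of these 4 lists with an unadjusted tissue p under 0.05, and read 8.74 and 8.38 in endoderm against 6.89 and 7.26.

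Ribosomal protein genes gave values near those of the members. Of 76 genes of the mitochondrial ribosome (Mrpl and Mrps) the medians between experiments were 1.01 in endoderm and 1.51 in mesoderm and ectoderm. At an unadjusted limma p under 0.05, 45 of 73 were higher and 0 lower, beside 16.5% and 11.5% of genes past the filter. Between the tissues the medians were -0.07 and then -0.64. Of 43 cytosolic ribosomal genes (Rpl and Rps) the medians between experiments were 0.77 and 1.31, with 21 of 41 higher and 1 lower, and the tissue median in the second experiment was -0.32. Mrps16, of the small mitochondrial subunit, read 3.76, 3.81, 7.37 and 8.20, and passed the filter only through the second experiment. Rplp2, a stalk protein of the cytosolic ribosome, read 12.00, 11.98, 15.19 and 15.39. By these medians, higher values in the second experiment were also seen in 2 gene groups outside oxidative phosphorylation, and whether the members differed from them was not tested. Genes of the mitochondrial genome were not analysed here.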

How the data were processed

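The authors deposited 1 normalised intensity for each of 45101 probe sets on each of 4 arrays. The series' design text states GC-RMA normalisation in GenePattern, and the submitters' processing notes name RMA. The values reach far above any log2 range and were therefore taken as linear. Intensities were turned to log2 with no offset. Controls (64 probe sets) were left out. Symbols came from the platform annotation, and 10092 probe sets with several symbols or none were not named. Probe sets with log2 above 5 on at least 2 arrays (13288) entered the linear models of limma 3.58.1 with moderated variances, run in R 4.3.3. Tests were two-sided, with p-values adjusted after Benjamini and Hochberg over all probe sets and a threshold of 0.05. Tissue was fitted without a block, and the experiment with tissue as a term. Python 3.11.15 did the rest. The fits were run on simulated arrays with known changes, to check that the mean estimate returned them. Noise was drawn independently for each probe set, so this does not check the p-values of these data.

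The labels' protocol ties the sample numbers to a shared dissection, and the deviations of same-numbered samples from their tissue means correlated at 0.565 across probe sets, so the numbers pair the samples. Members and lists were chosen with earlier results of these data known. Named genes were all of complex II, per other complex the 3 brightest and the 3 with the smallest p in each fit, the listed paralogs, and up to 2 per pathway list and fit. The grouping of subunits by role was made after values had been seen. The number of arrays limits the precision, and levels of different probe sets were used to choose and name genes, not compared as amounts of RNA. Alternatives were other filters, scalings, an offset of 16, other probe sets, an intensity trend, a replicate block and leaving out each array.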

Additional observations from a re-analysis of the deposited data

Results flagged for a closer look

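In 11 named members past the filter the tissue difference (endoderm minus mesoderm and ectoderm, log2) had opposite signs in the experiments, each beyond 0.1. The difference between the experiments was not tested. In all, 44 members were named, some of them below the filter. The first and then the second value were 0.29 and -0.47 for Atp5h, and 0.25 and -0.29 for Uqcrb. Uqcrh had 0.23 and -0.95. In complex IV, Cox4i1 had 0.16 and -0.85, Cox5a 0.19 and -0.65, and Cox6a1 0.19 and -0.58. In complex I, Ndufa6 had 0.21 and -0.78, and Ndufb6 0.14 and -1.03. In complex II, Sdha had 0.59 and -0.22, Sdhc 0.10 and -0.29, and Sdhd 0.14 and -0.73. All 11 were higher in endoderm first and lower second, as were 25.1% of genes past the filter when differences of any size are counted. The sign in the first experiment moved with the scaling for many members.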

How the results depend on the processing

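Limma called 0 members for tissue under every alternative, the replicate block included (lowest member adjusted p 0.499). For the experiment it called 15 with the filter at 7 (673 of 8423 probe sets). It called 17 with quantile normalisation (878 of 13288) and 12 with median centring (423 of 13288), and 0 otherwise. Leaving out each array in turn, the median tissue difference lay between -1.09 and 0.37 over all members, -1.20 and 0.42 for complex I, -1.56 and 0.83 for complex II, -0.76 and 0.42 for complex III, -1.18 and 0.54 for complex V, and -1.10 and 0.29 for assembly factors. Leaving out an array unbalances the experiments, so these tissue values contain part of the difference between experiments. The experiment difference without an array is a value with no test, and lay between 0.87 and 1.42 for assembly factors. With the next brightest probe set, which only some genes have, it was 0.64 for complex II (3 genes; 2.15 on their brightest), 3.04 for III (3; 0.69), 1.53 for IV (7; 0.80), 2.33 for V (8; 1.05) and -0.55 for assembly factors (2; 0.19), and with the mean of all probe sets 1.53 for III and 1.19 for IV. Complex II's tissue median was 0.37 with the next brightest (-0.10 on the brightest of the same 3). Members at least 2-fold higher in both tissues numbered between 32 and 66 when an array was left out, since only the other tissue is then counted. Members lower in endoderm in the second experiment numbered between 16 and 91, the 16 setting endoderm 2 against mesoderm and ectoderm 1 across the experiments. The sign turned for some single genes. Without an array, the tissue difference lay between -1.15 and 0.14 for Atp5d, -2.75 and 0.54 for Atp5g1, -0.87 and 0.052 for Atp5g3, -1.10 and 0.011 for Cox5b, -0.82 and 0.0057 for Cox6b1, -1.20 and 0.13 for Cox7a2, -2.64 and 0.87 for Uqcr11, and -1.94 and 0.13 for Uqcrq. The experiment difference without an array lay between -0.13 and 0.71 for Cox5a, -0.21 and 0.56 for Cox6a1, -0.47 and 0.66 for Ndufb8, and -0.24 and 0.97 for Ndufs8. With quantile normalisation it was -0.075 for Cox6a1, -0.11 for Ndufb8 and -0.093 for Uqcrc2. The cause of these changes was not tested, and the replicate block changed no call. With 2 arrays per tissue, differences smaller than the gaps between samples of one tissue could not be resolved.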
